A study of Mus musculus with 32 samples.

Results

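Cultures from mice 1 to 4 of colonoids, which are organoids of colonic crypt epithelium, were treated with bethanechol (Bch). These cultures gave 16 of the 32 mouse libraries of the series, chosen by the mouse numbers in their titles. Each mouse gave 1 untreated and 1 Bch-treated culture with 2 technical replicates each, and the technical replicates were summed, so the comparison rests on 8 sums in 4 pairs. All mice carried the Lgr5-EGFP-IRES-CreERT2 allele, in which the Lgr5 promoter drives EGFP and an inducible Cre, and crypts came from the proximal colon. Treated cultures had 250 nM Bch in their medium over 4 days and untreated cultures had none, and the L-WRN medium used for culture supplies Wnt, R-spondin and Noggin. Mice 1 to 4 are labelled male and their libraries were made from sorted Lgr5+ cells. No sex is labelled for mice 7 to 10, the other set, and that set has another source label and another RNA kit, so sex, source and kit cannot be told apart in any difference between the sets. No age is labelled for either set.

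Bch activates muscarinic acetylcholine receptors, G protein-coupled receptors of which M3, encoded by Chrm3, couples through Gq to calcium release and protein kinase C. In the gut, acetylcholine drives epithelial secretion and also acts on the stem and progenitor cells of the crypt base, which are marked by Lgr5. Growing cells need ribosomes, whose proteins are encoded by mRNAs that begin with an oligopyrimidine tract, through which growth signals control their translation. The nuclear 7SK RNA holds the transcription elongation factor P-TEFb inactive.

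The 8 sums held 557512 to 2560328 unique molecular identifiers (UMIs, each a counted cDNA molecule), with the lowest number in untreated mouse 3. A gene with 0 UMIs could have had up to 1.17 to 5.38 of every 1e6 UMIs, depending on the sum, when 3 UMIs are taken as the limit of a count of 0. Levels are given as CPM, which are UMI counts scaled by TMM to a common library size. Cell numbers sorted were 13114 for untreated and 3504 for Bch-treated mouse 1, 2361 and 3000 for mouse 3, and 3000 in the other cultures. The 8 epithelial markers examined summed to between 13412 and 14953 CPM, whereas the markers of immune cells reached at most 5.48, those of mesenchymal cells 6.78, those of neurons and glia 9.05 and those of endothelial cells 2.47. These sums rest on 8 of 12 immune, 6 of 14 mesenchymal, 5 of 8 neural and 1 of 6 endothelial markers, and the defining markers Cd3e, Tyrobp, Pdgfra, Cdh5 and Sox10 were not analysed here. Y-linked Eif2s3y was counted in every sum, with 31 to 166 UMIs, and Xist also had 13 to 38.

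The technical replicates of a culture did not count all genes alike, which bears on the ribosomal genes described here and on some others. Over the 9509 genes tested, technical replicate 2 held 0.983 times as many UMIs as technical replicate 1 for the median gene, but 78 genes were more than 2-fold higher in technical replicate 2 and 30 were more than 2-fold lower. Of the 78 cytosolic ribosomal protein genes tested, 38 were among the former and 0 among the latter, and Rps27 differed most, by 172-fold. Of the genes that are neither ribosomal protein genes nor their pseudogenes, 39 were more than 2-fold higher in technical replicate 2, Gapdh among them. The uneven counting was present in untreated and treated cultures alike, since ribosomal protein genes took 10.0% to 13.3% of the UMIs of each library of technical replicate 1 and 16.9% to 21.6% of each library of technical replicate 2. Values are therefore given from the sums, and also from each technical replicate where the ribosomal genes are concerned.

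Few genes passed the threshold in mice 1 to 4. Rn7sk, which encodes the 7SK RNA, and Rps24-ps3, a processed pseudogene of the small ribosomal subunit protein gene Rps24, rose, and 0 genes fell. With an adjusted p of 0.05 as the threshold (edgeR's quasi-likelihood test with the mouse as a block), these were 2 of 9509 genes, or 0.021%. At an unadjusted p under 0.05 there were 734 genes (7.72%), 424 of them higher (4.46%) and 310 lower (3.26%). With the block left out 0 genes passed, and DESeq2 with the block called 15, 14 of them higher. The median log2 fold change of all genes tested was 0.00. The mice did not share most of their differences, as the log2 ratios of Bch over untreated correlated across genes with r of 0.00 to 0.15 between pairs of mice. Mice 2 and 3 gave the highest of these 6 values. These correlations run across 9509 genes, which are not independent replicates.

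Rn7sk lies on chromosome 9 of GRCm38 from 78175303 to 78175633 on the minus strand and is annotated as a noncoding RNA gene. The first 90 bases of its 331-base transcript (GENCODE M21, GRCm38) are shown because the GATC repeats of this 5′ stem, capitalised here, are where the P-TEFb inhibitor HEXIM1 is known to bind.
Rn7sk 1 to 90: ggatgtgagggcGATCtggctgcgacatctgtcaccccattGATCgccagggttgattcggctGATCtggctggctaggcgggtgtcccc
The transcript holds 3 copies of these letters, all in the printed stretch, and its longest run of A is 3 bases. The libraries were primed with oligo-dT, and 66.3% of the 65-base windows of the transcript, which is the length of the sequenced read, also occur in other annotated genes, mainly Gm24447.

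The level of Rn7sk was 88.9 CPM in untreated and 165 in Bch-treated mouse 1. In mouse 2 it was 173 and 281. In mouse 3 it was 215 and 338, and in mouse 4 it was 211 and 255. It was higher with Bch in 4 of 4 mice, although the untreated levels of mice 2, 3 and 4 exceeded the treated level of mouse 1, so the groups overlapped. The mean was 172 ± 58.7 without and 260 ± 72.1 with Bch (SD, n = 4), a log2 fold change of 0.61 with a standard error of 0.10 (adjusted p = 0.00878, edgeR). This call was lost without mouse 1 (adjusted p = 0.241) and without mouse 2 (adjusted p = 0.418), with a log2 fold change of 0.53 and 0.58. Technical replicate 1 alone gave a log2 fold change of 0.62 and technical replicate 2 alone 0.59. In mice 7 to 10 Rn7sk was higher in 3 of 4 cultures, with 1.11 as its log2 fold change (unadjusted p = 0.224).

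The 7SK and P-TEFb list held no other gene past the threshold. Of 23 genes tested, 2 were higher and 2 lower at an unadjusted p under 0.05 beside the 4.46% and 3.26% of all genes, and the median log2 fold change was -0.07. Srsf2, a splicing factor that can recruit P-TEFb from 7SK, was higher in 4 of 4 mice, at 116 to 136 CPM without and 145 to 177 with Bch. The groups did not overlap for Srsf2, as for 1.51% of all genes tested in this direction. Its log2 fold change was 0.32 (adjusted p = 0.358, edgeR). In the other direction 2 members did not overlap, beside 1.37% of all genes, and these were named after their values were seen. Aff1 and Mllt1, which encode parts of the super elongation complex that contains P-TEFb, had log2 fold changes of -0.95 and -0.81 (adjusted p = 0.399 and 0.384, edgeR). Another list held RNA polymerase III products, other small structured RNAs and small nucleolar RNA host genes. Of its 20 genes tested, Rn7sk was the 1 with an unadjusted p under 0.05.

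Rps24-ps3 lies on chromosome X of GRCm38 from 79195047 to 79195448. It has 402 bases, all of them matching the coding sequence of an Rps24 transcript except for the 4 substitutions C207T, G273C, G360T and C380T, in which the Rps24 base comes first and positions count from the A of the start codon. The stretches around these bases are shown because they are what can tell a read of the pseudogene from a read of Rps24, and the capital marks the differing base.
Rps24 192 to 221: cggtggtggcaagacCactggctttggcat
Rps24-ps3 192 to 221: cggtggtggcaagacTactggctttggcat
Rps24 258 to 287: gcctaaacacagactGgcaagacatggcct
Rps24-ps3 258 to 287: gcctaaacacagactCgcaagacatggcct
Rps24 345 to 374: gaaggtcaggggcacGgcgaaggccaatgt
Rps24-ps3 345 to 374: gaaggtcaggggcacTgcgaaggccaatgt
Rps24 365 to 394: aggccaatgttggtgCtggcaaaaagccaa
Rps24-ps3 365 to 394: aggccaatgttggtgTtggcaaaaagccaa
Of the 338 windows of 65 bases in Rps24-ps3, 173 hold a substitution. In all, 179 windows also occur in other annotated genes, 165 of them in Rps24.

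In untreated mice 1 to 4 the level of Rps24-ps3 was 92.2, 86.1, 72.4 and 131 CPM. With Bch it was 137, 152, 148 and 163. Every treated culture was above every untreated one. The mean rose from 95.4 ± 25.1 to 150 ± 10.8 (SD, n = 4), a log2 fold change of 0.64 with a standard error of 0.12 (adjusted p = 0.0252, edgeR). As with Rn7sk, the call was lost without mouse 1 (adjusted p = 0.241) or mouse 2 (adjusted p = 0.890), with a log2 fold change of 0.67 and 0.58. Technical replicate 1 alone gave Rps24-ps3 a log2 fold change of 0.58, which did not pass (adjusted p = 0.0537, edgeR), and technical replicate 2 alone gave 0.68, which did (adjusted p = 0.0158, edgeR). Rps24-ps3 was also higher in 4 of 4 of mice 7 to 10, with a log2 fold change of 0.64 (unadjusted p = 0.0304, adjusted p = 0.999). Its parent Rps24 was at 1957, 2396, 2088 and 2839 CPM without Bch and at 3236, 3158, 2827 and 3096 with Bch, a log2 fold change of 0.42 with a standard error of 0.10 (adjusted p = 0.116, edgeR).

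**Figure D1:**
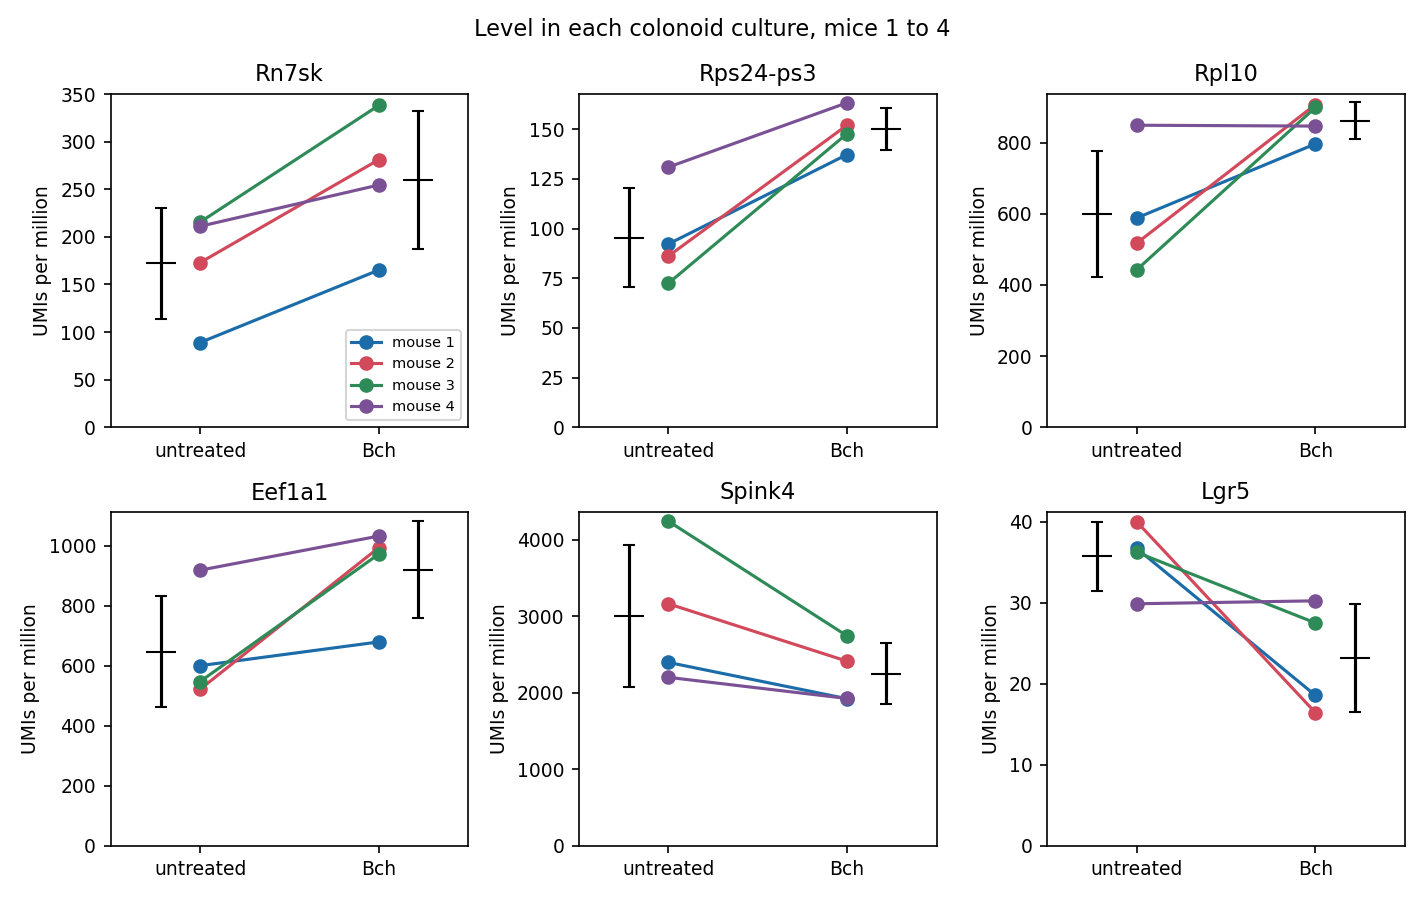
Levels in CPM (y axis) in untreated and Bch-treated cultures of mice 1 to 4, with a coloured line for each mouse and black marks for the mean and SD of 4 mice. Rn7sk and Rps24-ps3 were higher with Bch in 4 of 4 mice and Spink4 was lower in 4 of 4, whereas Rpl10 and Lgr5 were flat in mouse 4.

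The cytosolic ribosomal protein genes, which encode the proteins of both ribosomal subunits, had the median farthest from 0 among the lists of protein-coding genes with at least 5 members tested. Of 79 genes in the table, 78 could be tested, and 76 of these had a log2 fold change above 0, as did 50.3% of all genes. At an unadjusted p under 0.05, 65 were higher and 0 lower, beside 4.46% and 3.26% of all genes. Their median log2 fold change was 0.32, and the highest was 0.55, for Rpl10. None passed the adjusted threshold, and the smallest adjusted p was 0.115 (edgeR), whereas DESeq2 with the mouse as a block called 12 of them. Genes of the large subunit (Rpl) had a median of 0.30 and genes of the small subunit (Rps) one of 0.35, with 37 of 45 and 26 of 31 at an unadjusted p under 0.05.

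The difference was present in mice 1, 2 and 3 and not in mouse 4. The median log2 ratio of the 78 genes was 0.21 in mouse 1, 0.48 in mouse 2, 0.55 in mouse 3 and -0.01 in mouse 4. In mice 1, 2 and 3, 76, 78 and 74 of the 78 genes were higher with Bch, and in mouse 4, 30 were. The count of genes higher in 4 of 4 mice was 28, beside 8.27% of all genes. Counted as a share of UMIs, ribosomal protein genes went from 14.6% to 16.0% in mouse 1, from 13.6% to 16.9% in mouse 2 and from 13.7% to 17.5% in mouse 3. In mouse 4 the share was 17.7% without and 17.5% with Bch. The untreated culture of mouse 4 thus stood at the level of the treated cultures of the other mice, and the groups overlapped, with means of 14.9% ± 1.92 and 17.0% ± 0.711 (SD, n = 4).

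**Figure D2:**
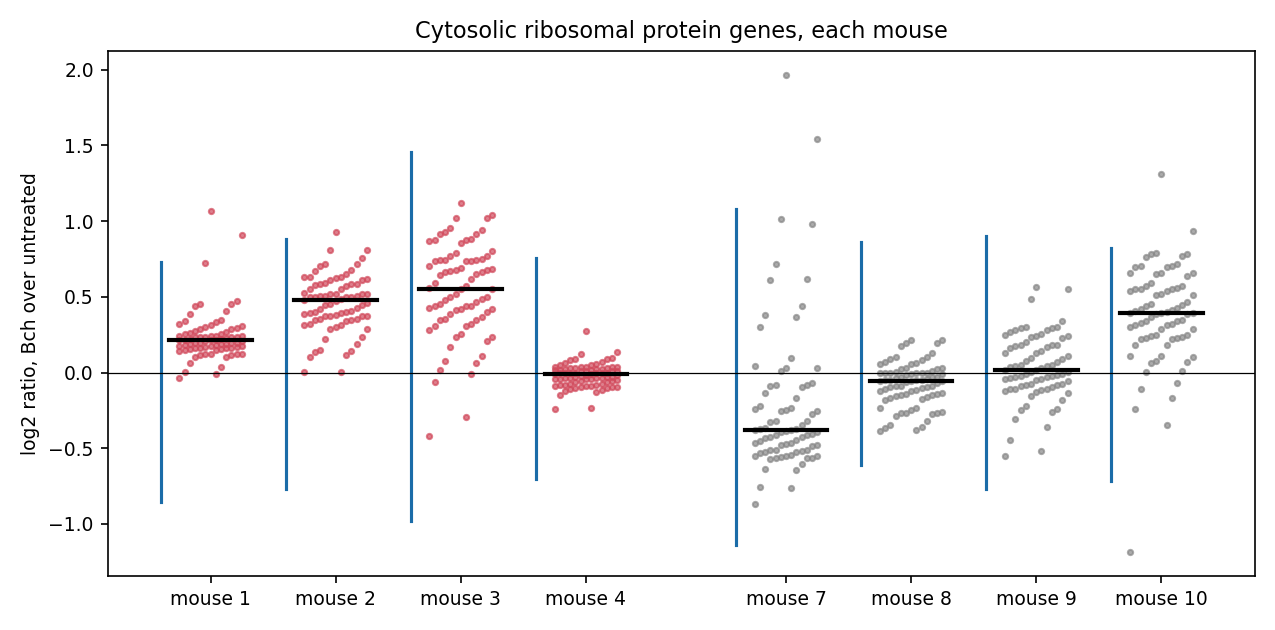
Log2 ratio of Bch over untreated (y axis) for each cytosolic ribosomal protein gene (1 point per gene) in mice 1 to 4 (red) and mice 7 to 10 (grey). Black bars are medians over 78 genes and blue lines span the 5th to 95th percentile of all genes tested; medians were 0.21, 0.48, 0.55 and -0.01 in mice 1 to 4 and -0.38, -0.05, 0.01 and 0.40 in mice 7 to 10.

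Among single members, Rpl10, a large-subunit protein near the catalytic centre of the ribosome, had the smallest p. Its level was 588, 517, 442 and 849 CPM in untreated mice 1 to 4 and 796, 907, 899 and 846 with Bch. Untreated mouse 4 overlapped the treated cultures. The log2 fold change was 0.55 with a standard error of 0.11 (adjusted p = 0.115, edgeR), and technical replicate 2 held 108 times as many UMIs of Rpl10 as technical replicate 1. Rps10, a small-subunit protein, was at 542, 412, 442 and 776 CPM without and 660, 721, 809 and 829 with Bch, a log2 fold change of 0.50 with a standard error of 0.11 (adjusted p = 0.116, edgeR). Technical replicate 2 held 1.19 times as many UMIs of Rps10 as technical replicate 1, so this gene was counted nearly alike in both. Rps2, which lies near the entry of the mRNA channel, was the 1 of 78 ribosomal protein genes whose groups did not overlap, beside 1.51% of all genes in this direction. Its level was 1652 to 2616 CPM untreated and 2649 to 2819 with Bch, with a log2 fold change of 0.44. In mouse 4 the log2 ratio of Rps2 was 0.02. Rps20, Rps23, Rps3a1, Rpsa and Fau, which all contribute proteins to the small subunit, had log2 fold changes of 0.44, 0.47, 0.41, 0.40 and 0.39. They were higher in 4 of 4 pairs, as the rule that named them required. In mouse 4 their log2 ratios were 0.04, 0.01, 0.05, 0.09 and 0.14.

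The difference was present in both technical replicates, which are libraries of the same cells and so not independent of each other. For the 40 ribosomal protein genes that both technical replicates counted within 2-fold of each other, the median log2 fold change was 0.31 and 31 were higher at an unadjusted p under 0.05. For the 38 genes more than 2-fold apart it was 0.33, and 34 were higher. Technical replicate 1 alone gave medians of 0.19, 0.53, 0.67 and -0.01 in mice 1 to 4, and technical replicate 2 alone gave 0.22, 0.45, 0.54 and -0.01. Of the 78 genes, 49 were higher at an unadjusted p under 0.05 with technical replicate 1 alone and 58 with technical replicate 2 alone. Rps10, Rps2, Rps20, Rps24, Rps26 and Rps3a1 passed the adjusted threshold with technical replicate 1 alone (adjusted p = 0.0351 to 0.0434, edgeR), and no ribosomal protein gene did so with technical replicate 2 alone.

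**Figure D3:**
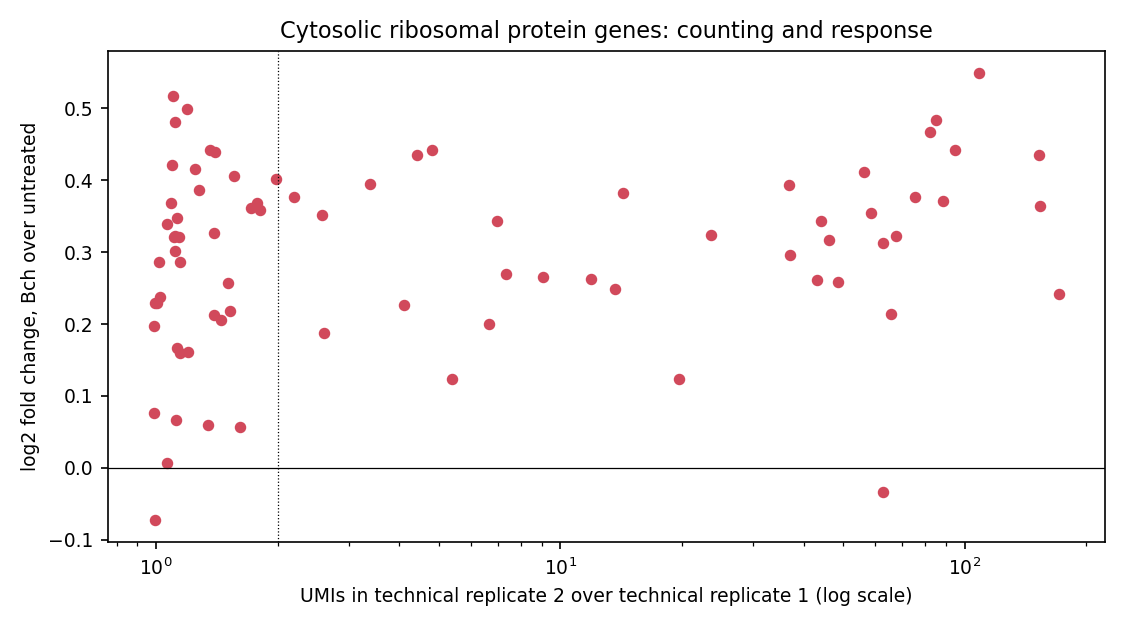
Log2 fold change of Bch over untreated in mice 1 to 4 (y axis) against the ratio of UMIs in technical replicate 2 to technical replicate 1 (x axis, log scale) for 78 cytosolic ribosomal protein genes, 1 point each; the dotted line marks a ratio of 2. Genes counted alike had a median log2 fold change of 0.31 and genes counted over 2-fold apart one of 0.33.

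Sequencing depth and cell number moved with the treatment in some mice. The Bch-treated sum held 0.822, 1.79, 3.57 and 1.01 times the UMIs of the untreated sum in mice 1, 2, 3 and 4. The mice with the largest ratios, 2 and 3, also had the largest ribosomal protein difference. Mouse 1 had a difference of 0.21 with fewer UMIs in the treated culture. In mice 7, 8, 9 and 10 the ratios of UMIs were 0.626, 2.50, 1.07 and 0.788. The ribosomal protein medians of those mice were -0.38, -0.05, 0.01 and 0.40. When all sums were thinned to 557512 UMIs, the median of the 78 genes was 0.30 and 48 were higher at an unadjusted p under 0.05, but Rn7sk and Rps24-ps3 no longer passed among the 5838 genes then tested (adjusted p = 0.759 and 0.590, edgeR). Their log2 fold changes after thinning were 0.51 and 0.80. Without mouse 3 the median was 0.23 with 46 genes higher, without mouse 2 it was 0.26 with 35, without mouse 1 it was 0.35 with 59, and without mouse 4 it was 0.44 with 68. The part of cell number in the result was not tested.

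**Figure D4:**
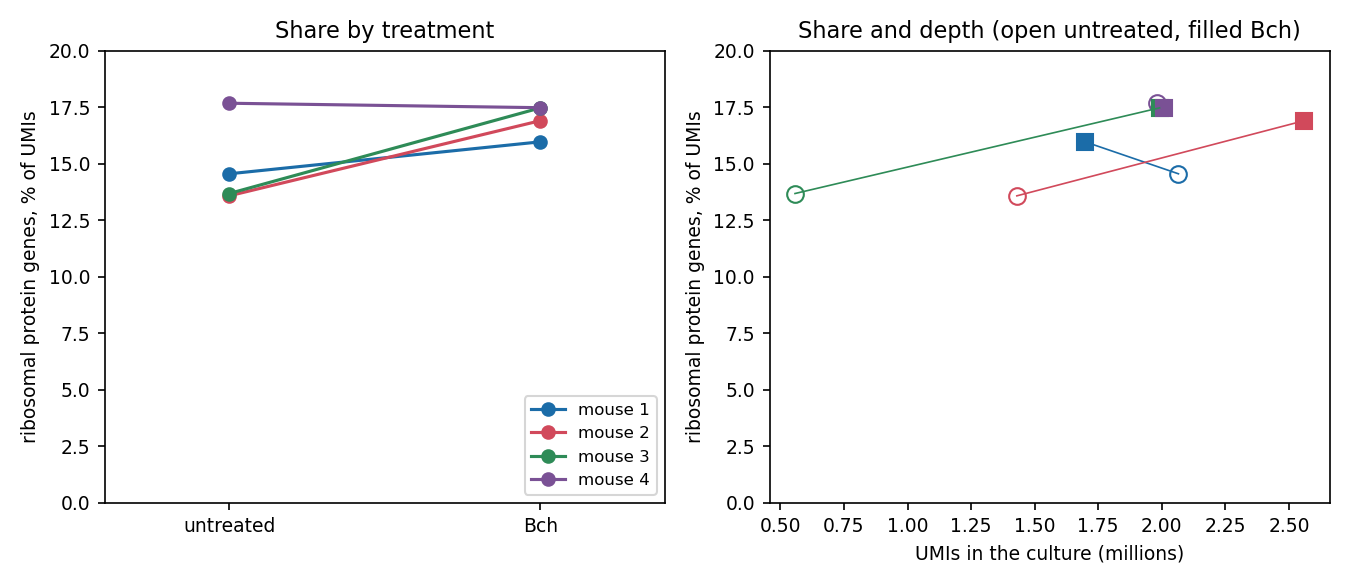
Share of UMIs taken by cytosolic ribosomal protein genes (y axis, %), by treatment in mice 1 to 4 (left) and against the UMIs of each summed culture (right, x axis in units of 1e6 UMIs, open circles untreated, filled squares Bch). The share was higher with Bch in mice 1, 2 and 3 and was 17.7% and 17.5% in mouse 4.

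Ribosomal protein pseudogenes and translation factors also had medians above 0. Of 121 pseudogenes tested, 31 were higher and 0 lower at an unadjusted p under 0.05, beside 4.46% and 3.26% of all genes, with a median of 0.36 and medians of 0.17, 0.65, 0.88 and -0.01 in mice 1 to 4. These share sequence with their parent genes, so UMIs from the shared stretches cannot be told apart from those of the parents by these counts. Rps3a2, annotated as a processed pseudogene, shares 87.9% of its 65-base windows with other genes, mostly Rps3a1, and had a log2 fold change of 0.81. Technical replicate 2 held 153 UMIs of Rps3a2 and technical replicate 1 held 601. Of 33 translation elongation and initiation factors, 10 were higher and 1 lower beside the same shares of all genes, with a median of 0.11. Eef1a1, which brings aminoacyl-tRNA to the ribosome, was at 600, 521, 547 and 918 CPM without and 679, 994, 972 and 1032 with Bch. The log2 fold change of Eef1a1 was 0.52 with a standard error of 0.11 (adjusted p = 0.116, edgeR), and it was higher in 4 of 4 mice. Eef1g, another elongation factor subunit, was higher in 3 of 4 pairs (log2 fold change 0.35).

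The genes that build ribosomes had a median near 0. Of 57 ribosome biogenesis genes, 3 were higher and 3 lower at an unadjusted p under 0.05, beside 4.46% and 3.26% of all genes, and the median log2 fold change was -0.03. Ppan, which acts in maturation of the large subunit, was lower in 4 of 4 mice, with 69.8 to 83.8 CPM without and 42.5 to 63.7 with Bch and a log2 fold change of -0.48 (adjusted p = 0.269, edgeR). Polr1c, a subunit of RNA polymerases I and III, had one of 0.29 (adjusted p = 0.510, edgeR). Of 77 mitochondrial ribosomal protein genes, 0 were higher and 7 lower, again beside 4.46% and 3.26% of all genes, with a median of -0.02. Mrpl17 of the large mitochondrial subunit was lower in 4 of 4 mice, with 336 to 518 CPM without and 295 to 337 with Bch. Its log2 fold change was -0.28, and -0.35 to -0.17 when a mouse was left out. The 271 other genes with a mean of at least 500 CPM, a group chosen after the data were seen, had a median of -0.01, with 23 higher and 18 lower.

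The starts of ribosomal protein genes are shown because their mRNAs are known to begin with an oligopyrimidine tract. For 8 of the ribosomal protein genes named here 9 RefSeq starts were listed, of which 4 held CTTCC or CTTTCC in the window printed and 5 did not, namely those of Rpl10, Rps2, Rps3a1 and Rpsa and another start of Rps24. The 4 with the letters are printed, and Rpl10, the member of smallest p, as an example of those without them. The windows run from 10 bases before to 20 after a RefSeq transcription start in GRCm38.p6, in gene orientation, and capitals mark CTTCC or CTTTCC, which share a C in Rps10.
Rps10 chr17:27635225-27635254 minus: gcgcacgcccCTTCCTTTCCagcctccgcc
Fau chr19:6057937-6057966 plus: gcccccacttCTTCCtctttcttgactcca
Rps23 chr13:90923112-90923141 plus: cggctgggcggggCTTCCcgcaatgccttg
Rps24 chr14:24490668-24490697 plus: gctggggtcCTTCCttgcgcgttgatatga
Rpl10 chrX:74270806-74270835 plus: tacagtggaagataggccgcctatataagg
RefSeq starts were found for 57 of the 78 tested genes. From 20 bases before to 50 after the start, CTTTCC occurred on the gene strand in 17 of 57 (29.8%), compared with 3.55% of 7043 other tested genes and 3.79% of all 27025 genes listed, and on the opposite strand in 0 and 3.42%. CTTCC, which is not contained in CTTTCC, occurred on the gene strand in 23 of 57 (40.4%) compared with 20.1%, and on the opposite strand in 22.8% compared with 24.3%. These 2 letter strings are from 6 that were tried after the data were seen. Genes with CTTTCC had a median log2 fold change of 0.32 (13 of 17 higher at an unadjusted p under 0.05) and those without it 0.33 (35 of 40), so the letters did not mark the genes that differed most.

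Genes encoded by mitochondrial DNA were also on the higher side. Of 13 in the table, 10 could be tested, and all 10 had a log2 fold change above 0 with a median of 0.18, while 3 were higher at an unadjusted p under 0.05, beside 4.46% of all genes. mt-Nd4, a subunit of respiratory complex I, was at 1724, 1916, 2470 and 3795 CPM without and 1774, 3555, 3800 and 4561 with Bch. The level of mt-Nd4 was higher in 4 of 4 mice, but hardly in mouse 1, and the groups overlapped, with a log2 fold change of 0.45 (adjusted p = 0.116, edgeR). Nuclear genes of the respiratory chain had 3 higher and 4 lower of 79, beside 4.46% and 3.26% of all genes, and a median of -0.03. All genes of mitochondrial DNA took 6.14% ± 1.34 of UMIs in untreated and 6.41% ± 0.936 in treated cultures (SD, n = 4). Within pairs this share was higher with Bch in mice 1, 2 and 4 and lower in mouse 3, where it went from 7.44% to 6.80%.

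No marker of secretory or absorptive cells passed the adjusted threshold. Of 17 goblet cell genes tested, 0 were higher and 3 lower at an unadjusted p under 0.05, beside 4.46% and 3.26% of all genes, and the median was -0.05. Spink4, a secreted peptide of goblet cells, was at 2398, 3165, 4247 and 2203 CPM in untreated mice 1 to 4 and 1923, 2413, 2745 and 1926 with Bch. It was lower in 4 of 4 mice, and the groups overlapped. The log2 fold change of Spink4 was -0.38 with a standard error of 0.09 (adjusted p = 0.116, edgeR), and it passed the threshold when ribosomal and mitochondrial genes were left out of the table and in DESeq2. Mptx1, a pentraxin of secretory crypt cells, had log2 ratios of -0.05, -1.02, -0.93 and -0.05 in mice 1 to 4, so that mice 1 and 4 were flat. The log2 fold change of Mptx1 was -0.52, and -0.31 without mouse 2. Of 19 colonocyte genes 2 were lower and 0 higher, and the median was 0.01. Car1, the carbonic anhydrase of absorptive colonocytes, was at 974, 790, 590 and 560 CPM without and 890, 394, 408 and 560 with Bch. With a log2 fold change of -0.41 Car1 did not pass (adjusted p = 0.195, edgeR), and mouse 4 was flat. The log2 fold change of Car1 ranged from -0.55 to -0.21 when a mouse was left out.

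Stem cell genes were mixed. Lgr5, the Wnt pathway receptor whose locus carries the EGFP used for sorting, was at 36.7, 40.0, 36.2 and 29.9 CPM in untreated mice 1 to 4 and 18.6, 16.4, 27.5 and 30.2 with Bch. Treated cultures of mice 1, 2 and 3 were below all untreated cultures, whereas mouse 4 did not differ. The log2 fold change of Lgr5 was -0.66 with a standard error of 0.23 (unadjusted p = 0.00581, adjusted p = 0.358, edgeR). Ascl2, a transcription factor of crypt stem cells, was at 319 to 427 CPM without and 388 to 437 with Bch, with a log2 fold change of 0.12 (adjusted p = 0.852, edgeR). Of 17 stem cell genes, 1 was lower and 0 higher at an unadjusted p under 0.05, near the 3.26% and 4.46% of all genes, and the median was -0.03. Of 19 Wnt receptors, inhibitors and targets, Lrp6, a Wnt co-receptor, was the 1 gene that reached this level, with a log2 fold change of -0.56 and lower values in 4 of 4 mice.

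The muscarinic receptor genes Chrm1 and Chrm3 were at the limit of detection. Chrm3 had 0 to 2 UMIs and Chrm1 0 to 3 in each sum, and neither could be tested. Of 14 genes of muscarinic and Gq signalling tested, 0 had an unadjusted p under 0.05, beside 7.72% of all genes, and the median was 0.08. Among 29 immediate early and MAPK feedback genes, 0 were higher and 2 lower, beside 4.46% and 3.26% of all genes. Junb and Fos, subunits of the AP-1 transcription factor, had log2 fold changes of -0.23 and -0.31. Values were higher with Bch in mouse 1 for Junb and in mouse 3 for Fos. When a mouse was left out, the log2 fold changes ranged from -0.37 to -0.13 for Junb and from -0.46 to -0.12 for Fos. Of 11 EGF receptor family members and ligands, Egfr was the 1 with an unadjusted p under 0.05, at 1.81 to 7.33 CPM without and 6.19 to 12.5 with Bch, close to the limit of detection.

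The DNA replication and mitosis lists had medians slightly below 0. Of 50 DNA replication genes, 1 was higher and 2 lower at an unadjusted p under 0.05, where 4.46% and 3.26% of all genes lay, with a median of -0.08, and of 44 mitosis genes 1 was higher and 1 lower, with a median of -0.05. Fen1, a nuclease that processes Okazaki fragments, was lower in 4 of 4 pairs (log2 fold change -0.37). Ccnf, the cyclin F gene, was at 16.0, 9.49, 25.4 and 13.6 CPM without and 3.71, 7.82, 6.23 and 4.10 with Bch. All treated cultures were below all untreated ones, as for 1.37% of genes in this direction. For Ccnf the log2 fold change was -1.46 with a standard error of 0.37 (adjusted p = 0.116, edgeR). Of 25 replication-dependent histone genes, 2 were higher and 0 lower, with a median of 0.19. H1f4, a linker histone, was higher in 4 of 4 pairs (log2 fold change 0.56), with 184 CPM in treated mouse 1 and 73.1 to 91.5 in the others.

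Among metabolic lists, ATF4 targets had 4 higher and 3 lower of 27 beside 4.46% and 3.26% of all genes, with a median of 0.11. Phgdh and Psph, which encode the first and the last enzyme of serine synthesis, were both higher in 4 of 4 mice without overlap of the groups, as were 8.27% and 1.51% of all genes. Phgdh was at 203 to 287 CPM without and 291 to 332 with Bch, a log2 fold change of 0.36 (adjusted p = 0.144, edgeR). Psph was at 115 to 160 and 170 to 210, a log2 fold change of 0.40 (adjusted p = 0.186, edgeR). Pycr1, an enzyme of proline synthesis named after its values were seen, was the 1 member lower without overlap, with a log2 fold change of -0.34 (adjusted p = 0.591, edgeR). Of 27 glycolysis and pyruvate genes, 4 were higher and 2 lower, with a median of 0.07. Gapdh was at 541, 267, 174 and 345 CPM without and 918, 332, 310 and 334 with Bch, with mouse 1 highest in both groups and mouse 4 flat. Gapdh had 0.45 as its log2 fold change (adjusted p = 0.117, edgeR). Its value rests mostly on technical replicate 2, which held 5771 UMIs of Gapdh beside 109 in technical replicate 1. Of 32 cholesterol and fatty acid synthesis genes, 2 were higher and 2 lower. Acss2, which makes acetyl-CoA from acetate, was lower without overlap, as were 1.37% of all genes, at 21.7 to 41.7 CPM without and 16.0 to 20.8 with Bch. Srebf1, a regulator of lipid synthesis, had a log2 fold change of -0.60, and of -0.83 to -0.36 when a mouse was left out.

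**Figure D5:**
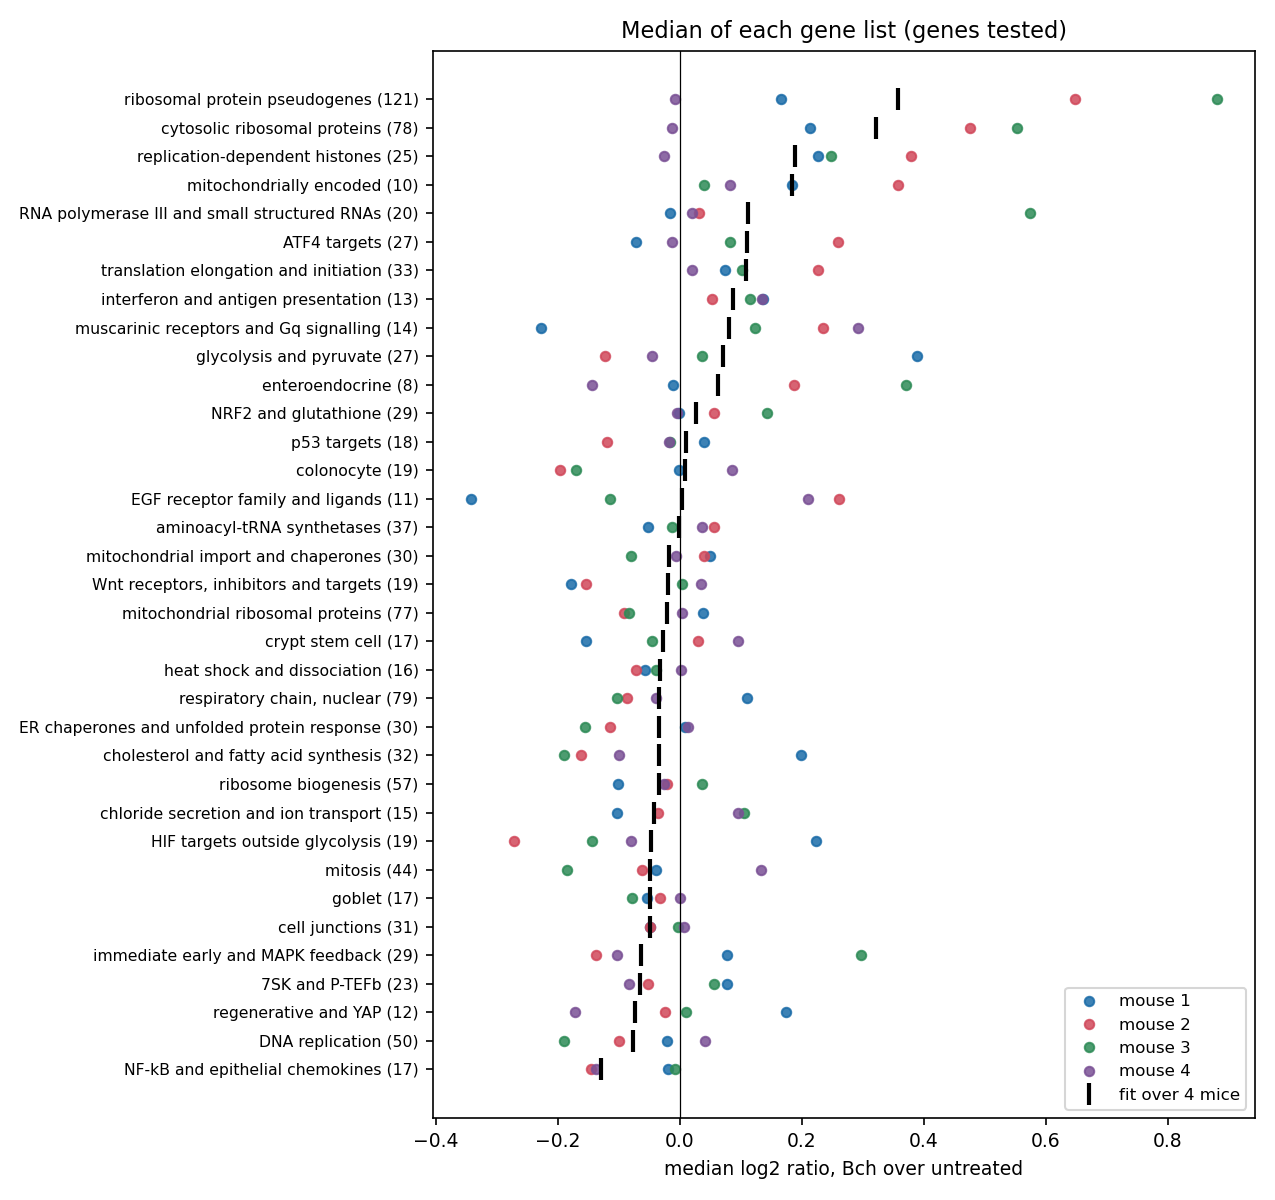
Median log2 ratio of Bch over untreated (x axis) for each gene list with at least 5 genes tested (y axis, number of genes in parentheses), in mice 1 to 4 (coloured points) and in the fit over 4 mice (black bars). Ribosomal protein pseudogenes and ribosomal protein genes lie farthest to the right, at 0.36 and 0.32, with mouse 4 near 0 in both.

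No gene of the stress and signalling lists passed the adjusted threshold. At an unadjusted p under 0.05, where 4.46% of all genes were higher and 3.26% lower, there were 0 higher and 3 lower of 30 ER chaperone and unfolded protein response genes, 1 higher and 2 lower of 16 heat shock and dissociation genes, 1 higher and 0 lower of 17 NF-kB and chemokine genes, 1 and 0 of 18 p53 targets, 2 and 1 of 29 NRF2 and glutathione genes, and 0 and 0 of 13 interferon genes. Hspa8, a constitutive chaperone, was higher in 4 of 4 pairs (log2 fold change 0.32, adjusted p = 0.237, edgeR). Aminoacyl-tRNA synthetases had 0 higher and 1 lower of 37, ion transport genes 1 and 0 of 15, cell junction genes 0 and 0 of 31, and regenerative and YAP genes 1 and 0 of 12. Of 8 enteroendocrine genes tested, 0 had an unadjusted p under 0.05. HIF targets outside glycolysis had 0 of 19, mitochondrial import genes 0 of 30 and nuclear-retained RNAs 0 of 3, and the 1 tuft cell gene tested, Rgs13, also did not reach it.

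By the size of p among genes lower in 4 of 4 mice, Spink4 and Ccnf were followed, among others, by Dipk1a, Abcf1, Zmiz2, Esyt2, Wapl, Exo5, Smim11, Anapc13 and Ppan, with log2 fold changes from -1.30 for Esyt2 to -0.29 for Anapc13. None passed the adjusted threshold. Wapl, which releases cohesin from chromatin, and Anapc13, a subunit of the anaphase-promoting complex, had log2 fold changes of -0.44 and -0.29. The 12 genes of smallest p higher in 4 of 4 mice were Rn7sk, Eef1a1, mt-Nd4 and 9 genes that encode or derive from ribosomal proteins, after 5 genes with the symbol of a numbered pseudogene or an unnamed model were left out. The processed pseudogene Rps3a2, whose symbol is not of that form, is 1 of the 9. In all, 275 genes were higher and 203 lower in 4 of 4 mice with an unadjusted p under 0.05, and whatever the p, 8.27% of genes were higher and 6.9% lower in 4 of 4 mice.

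The response in mice 1 to 4 was set beside that in mice 7 to 10 by the interaction of set and treatment over 16 sums. Of 10280 genes, 0 passed the adjusted threshold in edgeR (0%) and 0 in DESeq2, and 451 had an unadjusted p under 0.05 in edgeR (4.39%), 203 of them (1.97%) with the higher response in mice 1 to 4 and 248 (2.41%) with the lower. Of the 78 ribosomal protein genes, 14 were among these 203 and 0 among those in the other direction. The median log2 ratio of the ribosomal protein genes was -0.38, -0.05, 0.01 and 0.40 in mice 7, 8, 9 and 10, so the mice of that set differed from each other more than the medians of the sets, which were 0.32 and 0.01. Gcg, the proglucagon gene of enteroendocrine cells, had a log2 fold change of 0.43 in mice 1 to 4. It was higher in 2 of 4 of these mice, and the value ran from 0.14 to 0.76 when 1 of them was left out. In mice 7 to 10 the log2 fold change of Gcg was -0.81, and it was lower in 4 of 4. The interaction for Gcg was 1.25 on the log2 scale (unadjusted p = 0.000126, adjusted p = 0.649, edgeR). Rpl10 had an interaction of 0.52 on the log2 scale (unadjusted p = 0.0144). Lgr5 had a log2 fold change of 0.49 in mice 7 to 10, where it was higher in 4 of 4, compared with -0.66 in mice 1 to 4. The interaction for Lgr5 was -1.15 on the log2 scale, with an unadjusted p of 0.000985 and an adjusted p of 1 (edgeR). Ascl2 was lower in 4 of 4 mice there, with -0.32 compared with 0.12. For Ascl2 the interaction had an unadjusted p of 0.00939 and an adjusted p of 1 (edgeR).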

How the data were processed

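The authors deposited counts of UMIs per gene and library for 23517 genes. Per their methods, cDNA was primed with oligo-dT, reads of 65 bases were aligned to GRCm38 with GENCODE M25, and UMI tables were made with the Drop-seq pipeline. How reads matching several genes were treated, and how strand entered, is not given in the sources used here. Counts of 1520 genes are blank in technical replicate 2, hold at most 2 UMIs in technical replicate 1 of mice 1 to 4, and were read as 0. Both technical replicates of a culture agreed within sampling noise for the median gene (median chi-square 0.43 to 0.52, beside 0.455 for chance alone), and were summed as 1 sample.

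Sums were tested in R 4.3.3 with edgeR 4.0.16 (filterByExpr, TMM, robust quasi-likelihood test, mouse as a block) and Benjamini-Hochberg adjustment. Each standard error was derived from the log2 fold change and its F statistic. Levels are TMM-normalized CPM, and 2 was the prior count of the ratios within mice. The interaction of set and treatment was fitted over 16 sums. This fit and the main fit of mice 1 to 4 were tested on simulated data, and the other fits were not. The limits given for a count of 0 cover counting error only, whereas SDs and standard errors also hold variation between cultures. Alternatives used limma 3.58.1 and DESeq2 1.42.0. An untreated and a treated sum of 1 number are cells of the same animal by the labels, and their deviations from the group means correlated with r of 0.26, 0.05, 0.06 and 0.10 in mice 1 to 4. The study's design also had identifier and treatment as terms.

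The genes named were those past the threshold, for each direction, the 12 of smallest p among those that went the same way in 4 of 4 mice (without symbols ending in -ps and a number, Gm numbers, Rik and accession-like clones), the 2 genes of smallest p in each list, and the stem cell, receptor and sex-linked genes. Rps26, Rps27 and the 2-fold split of technical replicates were chosen after their values were seen. Some genes that these rules name are not reported here. Members, lists and rules were chosen with earlier results of these data known. Gene positions and transcripts are from GENCODE M21 and starts from RefSeq, both on GRCm38.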

Additional observations from a re-analysis of the deposited data

Results flagged for a closer look

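In groups of 4 cultures, 4 of 62 tested groups of values with fewer than 3 cultures at 0 UMIs held a culture far from the other 3 by Dixon's test on the gap over the range, where chance gives about 1 in 20. Among Bch-treated cultures, Eef1a1 was lowest in mouse 1, at 679 CPM with the highest at 1032. Wapl was highest in treated mouse 2, at 107, and Exo5, a nuclease gene, was lowest in treated mouse 1, at 8.66. Among untreated cultures, Rpsa was highest in mouse 4, at 1245 with the lowest at 807. Apart from these, Chrm1 was at 1.05 in untreated mouse 4 and Chrm3 at 0.519 in treated mouse 3, each with 0 UMIs in the other 3 cultures of the group. These levels are counts of 2 and 1 UMIs, and with 3 values at 0 any UMI meets the test by construction, so neither says that a culture stands apart.

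The NF-kB and epithelial chemokine list had a median log2 fold change of -0.13. Its median ratio was below 0 in each of mice 1 to 4 (-0.15 to -0.01) and above 0 in mice 7 to 10. The list was chosen for this separation of signs, and some of the medians were near 0. These were -0.02 in mouse 1, -0.01 in mouse 3, 0.03 in mouse 8 and 0.02 in mouse 10. The difference between the medians was not tested as such. Gene by gene, the interaction of set and treatment had 1 of 17 members at an unadjusted p under 0.05, lower in mice 1 to 4, and 0 higher, with a median of -0.08 on the log2 scale and none past the adjusted threshold (smallest adjusted p = 1, edgeR).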

How the results depend on the processing

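The number of genes past the threshold in mice 1 to 4, 2 in the reported fit, was 0 with no replicate block (the pairing by mouse dropped), 0 with all 16 sums in 1 fit, 0 with limma-trend and 0 with sums thinned to 557512 UMIs. It was 15 with DESeq2 (which gave Rn7sk and Rps24-ps3 no adjusted p), 88 with no filter on low counts, 9 with technical replicate 1 alone and 338 with technical replicates as separate libraries. Leaving out a mouse gave 0 (mice 1 and 2) to 19 (mouse 4) genes, with 5 without mouse 3. With no replicate block, 478 genes had an unadjusted p under 0.05, and limma-trend gave 798, thinning 307 and the fit of 16 sums 600. The ribosomal protein genes higher at an unadjusted p under 0.05, 65 of 78, were 48 with no replicate block and 22 with technical replicates as separate libraries, and 35 to 68 when a mouse was left out. Their median stayed between 0.23 and 0.44 in every alternative that kept these genes. The interaction had 1 gene past the threshold (Gcg) with no filter on low counts and 0 under the other alternatives. Of 1526 values of 94 named genes under the alternatives, 8 changed sign. With thinning Btc was -0.028, Ccng1 -0.090, Fos 0.074, Hk2 -0.18 and Junb 0.082. When a mouse was left out, Neat1 ranged from -0.047 to 0.41, Uty from -0.052 to 0.75 and Pyy from -0.0015 to 0.38, with the lowest values without mouse 4, mouse 4 and mouse 2. Of 627 list medians, 36 moved by more than the spread between mice. Some medians near 0 changed sign when a mouse was left out. Among these were glycolysis and pyruvate (-0.07 to 0.14), goblet cell (-0.10 to 0.05) and stem cell genes (-0.06 to 0.09). The causes were not tested.

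With 4 mice and 557512 to 2560328 UMIs a culture, Chrm1 and Chrm3 could not be tested, and values of genes near the limit of a count of 0, such as Egfr, rest on few UMIs.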
